A study of Mus musculus with 8 samples.

Results

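The E2F transcription factors, the retinoblastoma family of pocket proteins and B-Myb were examined in cultured muscle stem cells (MuSCs) from aged mice. The 10 genes were E2f1, E2f2, E2f3, E2f4, E2f7, E2f8, Rb1, Rbl1, Rbl2 and Mybl2, chosen by symbol from 55487 gene identifiers in the count table. All 10 passed the filter on low counts, as did 12060 genes in all. MuSCs were sorted from hindlimb muscle of wild-type C57BL/6JRj male mice labelled Old, as lineage-negative cells with CD34 and integrin α7 on their surface. Cells were combined into 4 pools of 2 mice and cultured for 72 hours in growth medium. By the shared pool numbers in the labels, each pool was taken to have been cultured under both conditions, which gives 8 mice. The vehicle was 1% DMSO, and the treatment was nicotinamide with pyridoxine (NAM/PN) at a labelled final concentration of 1 mM, and the labels do not say whether this holds for each compound. Each of the 8 libraries therefore came from pooled animals, and all of them from cells that had left the muscle.

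Pocket proteins bind E2F factors and hold their target genes silent until cyclin-dependent kinases phosphorylate the pocket protein late in G1, after which E2F targets needed for DNA replication are transcribed. E2F1, E2F2 and E2F3 are activators, E2F4 acts mainly as a repressor together with p107 and p130, and E2F7 and E2F8 are atypical repressors that work without a DP partner. In the MuSC lineage, the retinoblastoma protein is known for its part in cell cycle exit before myoblasts differentiate.

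Several of these genes are themselves known as E2F targets, so the promoters in which a script found an E2F word or a cell cycle homology region (CHR) word in the window were read first. The words searched on both strands were TTTCGCGC, TTTGGCGC, TTTCCCGC and TTTGCCGC for E2F, and TTTGAA and TTCGAA for the CHR, which MuvB complexes bind. The sequences below are the 250 bases before the RefSeq transcription start in GRCm38.p6, written 5′ to 3′ on the strand of the gene, with the matched words in capitals. Rbl1, E2f7 and E2f3 are shown for an E2F word before the start, and E2f8 and E2f3 for the CHR words nearest to a start. The matches in E2f2 and Rbl2 are given by position only.
Rbl1, chr2:157204535-157204784, minus strand: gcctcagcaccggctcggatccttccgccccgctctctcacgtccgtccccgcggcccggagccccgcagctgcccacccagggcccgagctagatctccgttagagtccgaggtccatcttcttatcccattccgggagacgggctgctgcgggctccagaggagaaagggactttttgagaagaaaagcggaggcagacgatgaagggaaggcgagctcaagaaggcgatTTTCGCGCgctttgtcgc
E2f3, chr13:29986064-29986313, minus strand: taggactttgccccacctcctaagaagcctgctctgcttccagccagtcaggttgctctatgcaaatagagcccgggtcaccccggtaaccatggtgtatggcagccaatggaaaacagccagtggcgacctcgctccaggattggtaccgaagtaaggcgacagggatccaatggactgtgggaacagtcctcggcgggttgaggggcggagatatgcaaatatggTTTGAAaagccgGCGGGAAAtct
E2f7, chr10:110745189-110745438, plus strand: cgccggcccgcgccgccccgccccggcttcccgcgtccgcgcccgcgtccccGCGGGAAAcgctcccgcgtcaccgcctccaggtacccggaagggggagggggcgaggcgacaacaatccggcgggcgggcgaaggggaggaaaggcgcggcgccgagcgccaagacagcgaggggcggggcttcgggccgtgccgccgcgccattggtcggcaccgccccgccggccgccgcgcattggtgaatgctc
E2f8, chr7:48881597-48881846, minus strand: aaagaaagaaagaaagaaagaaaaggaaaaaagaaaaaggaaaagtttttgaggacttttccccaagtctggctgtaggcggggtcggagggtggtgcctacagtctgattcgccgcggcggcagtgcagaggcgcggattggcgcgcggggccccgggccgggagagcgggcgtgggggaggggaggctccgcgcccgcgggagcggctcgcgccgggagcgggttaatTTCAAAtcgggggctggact
The Rbl1 word TTTCGCGC lay 18 to 11 bases before the start. In E2f3 the word TTTCCCGC, read on the opposite strand, lay 11 to 4 bases before the start, and TTTGAA lay 23 to 18 bases before it. In E2f7 the same E2F word lay 198 to 191 bases before the start, again on the opposite strand. The TTTGAA of E2f8 lay 20 to 15 bases before the start on the opposite strand. E2f3 has a further RefSeq start 1672 bases within the gene, whose window held neither word. E2f2 also has 2 RefSeq starts. It held TTTGGCGC at positions 40 to 47 after the first, which is 120 bases upstream of the gene start in GENCODE, and TTTGAA 31 to 26 bases before the second, which lies within the gene. Rbl2 held TTTGAA on the opposite strand, 201 to 196 bases before its start. RefSeq windows of 300 bases, from 250 before to 50 after the start, were given for 8 of the 10 genes, and an E2F word was found in 4 of the 8 and a CHR word in 4 of the 8. The start given for E2f1, which held neither word, lies within the gene, 466 bases downstream of the GENCODE gene start. The Mybl2 window also held neither word. Only exact copies of the listed words were sought, so sites spelled otherwise were not counted. Of all genes in the RefSeq table, 2.60% had an E2F word and 21.7% a CHR word, and of the 8858 tested genes with a window 5.13% and 15.8% did. A match is a string of letters and was not tested as a binding site.

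Levels are given as CPM, the counts of a gene scaled to a common library size with TMM factors, which align the bulk of genes between libraries. The libraries count 3′ tags, 1 for each transcript end, so CPM of different genes were compared without division by gene length. Library totals ran from 6472484 to 10163101 counts, and the 9 genes other than Mybl2 had between 62 and 1452 counts in each library. NAM/PN library 4 had the largest total but the fewest genes detected (12483, against 12939 to 14472). Its mean r of log2 CPM with its group was also the lowest (0.819, against 0.834 to 0.874). It held the lowest E2f2, E2f3, E2f7, E2f8, Rb1 and Rbl2 of all libraries and the highest E2f1 and Mybl2. The part of library quality in these values was not tested. In vehicle, E2f2 was the most abundant at 147 ± 26.9 CPM (SD, n = 4), and its lowest vehicle library was above the highest of any other member. E2f8, E2f1, E2f4, E2f3 and Rb1 followed with means from 76.2 to 48.5 CPM, and each overlapped its neighbor in that order. E2f7 at 39.1 CPM stood above Rbl1 at 25.8 CPM without overlap, Rbl1 and Rbl2 (24.2 CPM) overlapped, and Mybl2 came last at 6.30 CPM. With NAM/PN the order of means was E2f2, E2f1, E2f8, E2f4, E2f3, E2f7, Rbl1, Rb1, Rbl2 and Mybl2, and all neighbors in it overlapped. Rb1 was thus above E2f7 and Rbl1 in mean level in vehicle and below both with NAM/PN.

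**Figure D1:**
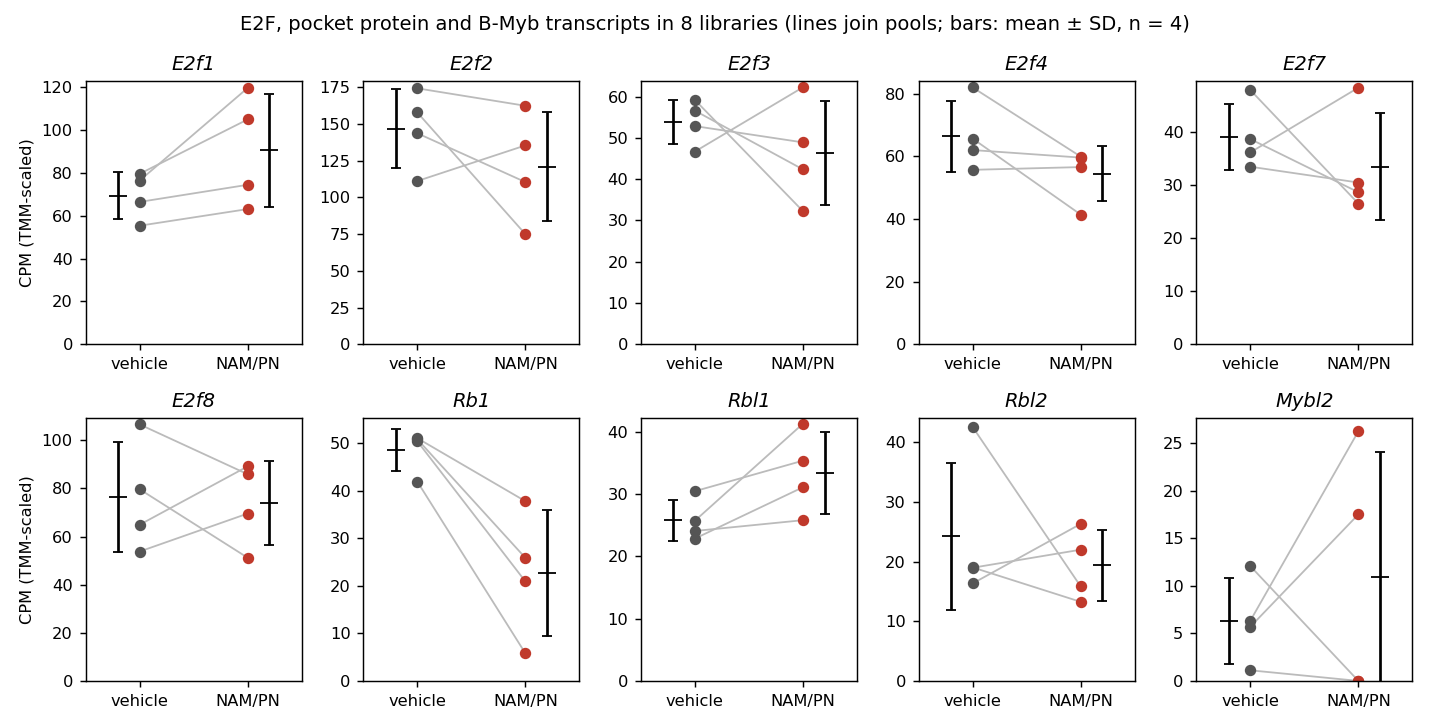
Each panel plots the CPM of 1 gene in the 4 vehicle libraries (gray) and the 4 NAM/PN libraries (red), with lines joining libraries of the same pool and bars giving the mean ± SD (n = 4, and the lower bar of Mybl2 is clipped at 0). Rb1 was lower with NAM/PN in 4 of 4 pools, E2f1 and Rbl1 were higher in 4 of 4, and the other genes moved in both directions.

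Rb1 showed the largest difference of the pocket proteins. Rb1 (ENSMUSG00000022105, chr14:73183673-73325822, minus strand) encodes the retinoblastoma protein. Its levels were 50.8, 50.4, 51.0 and 41.9 CPM in vehicle pools 1 to 4, and 25.9, 20.9, 37.8 and 5.79 CPM with NAM/PN in the same pools. The groups did not overlap, and the pool 4 NAM/PN library, with 62 counts, was far below the other three. The within-pool differences in log2 CPM were -0.97, -1.26, -0.43 and -2.80. The fitted log2 fold change was -1.11 ± 0.40 (SE), or 0.464-fold with a 95% interval from 0.261 to 0.825, but the call was not made (unadjusted p = 0.0117 and adjusted p = 0.280, edgeR quasi-likelihood test over all genes). With the pool as a block the log2 fold change was -1.35, and the adjusted p stayed above the threshold at 0.117. Without the pool 4 NAM/PN library, the log2 fold change was -0.79 and the adjusted p was 0.284. When no filter on low counts was applied, the adjusted p was 0.0368 and the call was made. In all 20 alternatives the sign was negative, with log2 fold changes from -1.48 to -0.79. These refit the same libraries, and with groups that do not overlap a leave-out could hardly turn the sign.

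The end of Rb1 overlaps Rcbtb2 on the opposite strand, and the 3′ ends of both genes lie in that stretch. Rcbtb2 had 3124 counts over the 8 libraries against 2303 for Rb1, and the strand setting of the counting was not given in the sources used here, so reads of the overlap could not be assigned with certainty. Rcbtb2 itself ranged from 35.7 to 75.5 CPM in vehicle and from 30.4 to 60.3 CPM with NAM/PN (log2 fold change -0.11 ± 0.29, edgeR adjusted p = 0.978). The 2 groups overlapped for Rcbtb2 and did not for Rb1.

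Rbl1 and Rbl2 encode p107 and p130, the other two pocket proteins. Rbl1 (ENSMUSG00000027641, chr2:157145893-157204534, minus strand) was measured at 30.4, 22.8, 25.7 and 24.0 CPM in vehicle and at 35.3, 31.1, 41.3 and 25.8 CPM with NAM/PN. It was higher with NAM/PN in 4 of 4 pools, opposite to Rb1, although the groups overlapped and the fold change of 1.29 (95% interval 0.837 to 2.00) did not pass the test (edgeR adjusted p = 0.833). Rbl2 (ENSMUSG00000031666, chr8:91070057-91123844, plus strand) was at 16.3, 19.0, 42.6 and 19.0 CPM in vehicle and at 26.3, 22.0, 15.8 and 13.3 CPM with NAM/PN. The pool 3 vehicle library alone stood above 26.3 CPM, and 2 pools were higher and 2 lower with NAM/PN. The Rbl2 log2 fold change was -0.32 ± 0.40 (SE, edgeR adjusted p = 0.926), and it turned to 0.09 without the pool 3 vehicle library. The end of Rbl2 overlaps Aktip on the opposite strand, with 1206 counts for Aktip against 1429 for Rbl2. The Rbl1 span holds a pseudogene, Gm14277, on the opposite strand with 598 counts.

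Among the activators, E2f1 was above vehicle in every pool. E2f1 (ENSMUSG00000027490, chr2:154559407-154569892, minus strand) encodes the activator that also can induce apoptosis. It was measured at 79.6, 55.3, 66.4 and 76.4 CPM in vehicle and at 105, 63.1, 74.5 and 119.7 CPM with NAM/PN. Pools 1 and 4 had the highest levels with NAM/PN and also the highest in vehicle, and the ranges of the groups overlapped. The fold change was 1.31 (95% interval 0.933 to 1.83), with an edgeR unadjusted p of 0.114 and an adjusted p of 0.715. The sign was positive in all 20 alternatives, with log2 fold changes from 0.22 to 0.52.

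E2f2 and E2f3 did not follow E2f1. E2f2 (ENSMUSG00000018983, chr4:136172394-136196057, plus strand) was at 143.8, 174, 111.2 and 158 CPM in vehicle and at 110.5, 162, 135.5 and 75.0 CPM with NAM/PN. Its NAM/PN level was below vehicle in 3 of 4 pools and above it in pool 3, and the log2 fold change was -0.28 ± 0.23 (SE, edgeR adjusted p = 0.832). E2f3 (ENSMUSG00000016477, chr13:29906575-29986063, minus strand) was at 56.6, 52.9, 46.7 and 59.2 CPM in vehicle and at 42.3, 48.9, 62.3 and 32.2 CPM with NAM/PN. It was again below vehicle in pools 1, 2 and 4 and above it in pool 3, and its log2 fold change was -0.22 ± 0.25 (SE, edgeR adjusted p = 0.915). Leaving out a library or pool gave -0.46 to -0.073 for E2f2 and -0.45 to -0.026 for E2f3, and both were nearest to 0 without pool 4. Without NAM/PN library 4 alone, E2f2 was at -0.11 and E2f3 at -0.075, and without NAM/PN library 3 E2f3 was at -0.39.

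The repressors were also within the spread of the replicates. E2f4 (ENSMUSG00000014859, chr8:105297663-105305370, plus strand), the main repressor E2F of resting cells, was at 82.1, 62.0, 65.7 and 55.7 CPM in vehicle and at 59.9, 59.6, 41.4 and 56.6 CPM with NAM/PN. It was below vehicle in pools 1 to 3, with a log2 fold change of -0.29 ± 0.23 (SE, edgeR adjusted p = 0.826). The leave-outs of a library or pool gave -0.38 to -0.17 for E2f4, with -0.17 without vehicle library 1 and -0.18 without NAM/PN library 3. E2f7 (ENSMUSG00000020185, chr10:110745439-110787384, plus strand) was at 38.7, 33.5, 36.2 and 48.0 CPM in vehicle and at 28.7, 30.5, 48.4 and 26.5 CPM with NAM/PN. Like E2f2 and E2f3, it was above vehicle in pool 3 and below it in the other pools, with a log2 fold change of -0.22 ± 0.29 (SE, edgeR adjusted p = 0.930). For E2f7 the leave-outs gave -0.49 without pool 3 to -0.012 without pool 4, and it was at -0.45 without NAM/PN library 3 and -0.13 without NAM/PN library 4. E2f8 (ENSMUSG00000046179, chr7:48866429-48881596, minus strand), the atypical repressor that pairs with E2F7, was at 53.8, 64.9, 106.6 and 79.7 CPM in vehicle and at 69.6, 89.2, 85.9 and 51.2 CPM with NAM/PN. The pools split evenly for E2f8, and its log2 fold change of -0.04 ± 0.25 (SE, edgeR adjusted p = 0.990) changed sign when single libraries were left out. The 95% intervals of the 6 E2F genes lay between -0.83 and 0.87 on the log2 scale.

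Mybl2 was detected unevenly. Mybl2 (ENSMUSG00000017861, chr2:163054687-163084688, plus strand) encodes B-Myb, which joins the MuvB core to activate G2/M genes. It had 102, 9, 46 and 58 counts in vehicle pools 1 to 4, and 0, 0, 115 and 281 counts with NAM/PN. In CPM these were 12.1, 1.12, 5.68 and 6.31 in vehicle, and 0, 0, 17.5 and 26.2 with NAM/PN, where a count of 0 allows levels of up to 0.369 and 0.418 CPM in pools 1 and 2 (3 counts, counting error only). Thus, 2 of the NAM/PN libraries were the lowest of all 8 and the other 2 the highest. The log2 fold change was 0.80 ± 1.20 (SE, edgeR adjusted p = 0.948), and it was -0.98 with the pool as a block. Col1a1, a fibroblast collagen gene, was at 486 and 1032 CPM in the 2 NAM/PN libraries without Mybl2 counts and between 1.74 and 41.3 CPM in the other six, and its part in the Mybl2 values was not tested. Of 8 markers of fibro-adipogenic cells, 3 passed the filter, with Col1a1 higher and 2 (Col3a1 and Cd34) lower with NAM/PN. Pdgfra, Lum and Dpt were at 0 in every library.

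None of the 10 genes passed the edgeR threshold of an adjusted p under 0.05, which 1.28% of all tested genes passed (154 genes). DESeq2 likewise called 0 of the 10. Of the 10, 1 (Rb1) had an unadjusted p under 0.05 by either tool, against 9.28% of all genes in edgeR. This count was 2 without NAM/PN library 2, where E2f1 had an edgeR unadjusted p of 0.0432, and 0 without pool 2, where that of Rb1 was 0.0558. Rb1 was also the 1 of 10 genes with all NAM/PN libraries below all vehicle libraries, as found for 4.42% of all genes. No member had all NAM/PN libraries above all vehicle libraries, against 2.79% of all genes. Log2 fold changes were above 0 for 3 of the 10 (E2f1, Rbl1 and Mybl2), against 49.8% of all genes, and the median of the 10 was -0.22 against -0.0022 over all tested genes. This median was not recomputed over the leave-outs. The genes nearest to it, E2f3 and E2f7, were at -0.026 and -0.012 without pool 4. In all 4 pools, 2 of the 10 were higher with NAM/PN (8.56% of all genes) and 1 was lower (10.6% of all genes). In bulk RNA, fewer cells with a transcript and less of it per cell cannot be told apart.

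**Figure D2:**
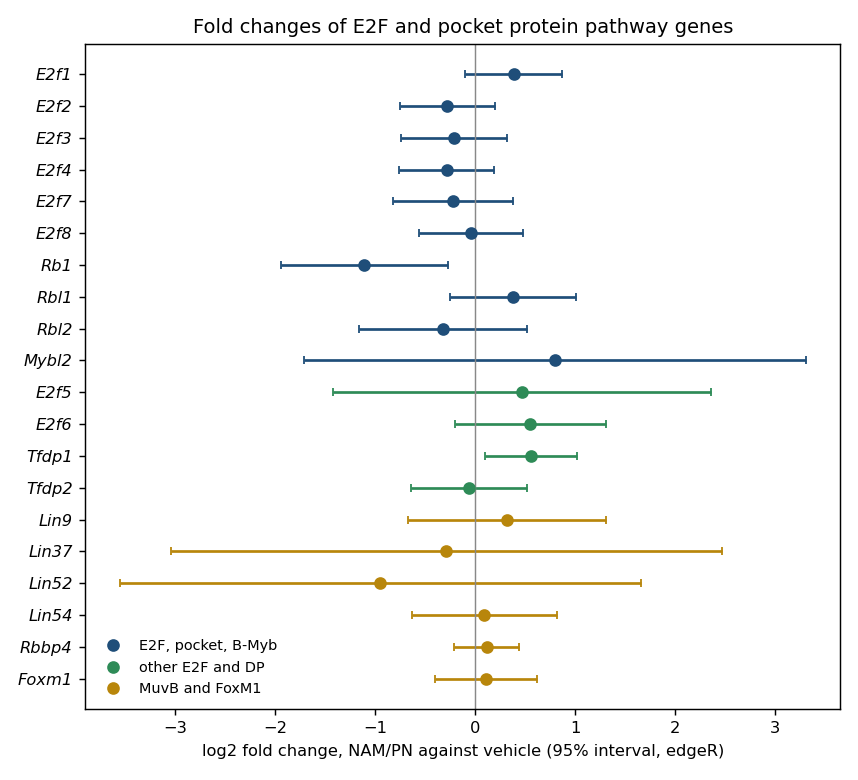
Points give the log2 fold change of NAM/PN against vehicle from edgeR and lines its 95% interval for the 10 genes (blue), the remaining E2F and DP genes (green), and MuvB core genes with Foxm1 (ocher). The intervals of Rb1 (below 0) and Tfdp1 (above 0) left out 0 before adjustment, and no gene shown passed the adjusted threshold.

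The ratio of E2f1 to Rb1 CPM within a library was also read, a ratio chosen after the values had been seen. It was 1.57, 1.10, 1.30 and 1.82 in vehicle and 4.06, 3.02, 1.97 and 20.7 with NAM/PN. The ratio was higher with NAM/PN in every pool, which had to follow because E2f1 was higher and Rb1 lower in every pool. The highest value came from the library with 62 Rb1 counts. It is a description and was not tested.

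Of the remaining E2F and DP genes, Tfdp1 had the smallest p. Tfdp1, the DP1 partner with which E2F1 to E2F6 bind DNA, was at 72.5, 53.6, 68.7 and 43.0 CPM in vehicle and at 85.8, 79.6, 81.9 and 101.4 CPM with NAM/PN. All NAM/PN libraries were above all vehicle libraries, as for 2.79% of all genes, and the log2 fold change was 0.55 ± 0.22 (SE, edgeR unadjusted p = 0.0214 and adjusted p = 0.372). Tfdp2, which encodes the DP2 partner, had a log2 fold change of -0.06, E2f6, a repressor within Polycomb complexes, of 0.55, and E2f5, a partner of p130 with at most 10.7 CPM in any library, of 0.47 (edgeR adjusted p between 0.754 and 0.987). Leaving out a library or pool gave values from 0.20 to 1.02 for E2f6, with 0.31 without NAM/PN library 1 and 0.87 without vehicle library 2. For E2f5 the range was 0.23 to 0.85, with 0.24 without NAM/PN library 2 and 0.85 without NAM/PN library 4, and the pool block gave 0.074. Of these 4 genes, 0 were called by edgeR or DESeq2 (1.28% of all genes in edgeR), 1 (Tfdp1) had an edgeR unadjusted p under 0.05 (9.28% of all genes), and 3 were above 0 (49.8% of all genes). Their median was 0.51, and it was 0.29 without NAM/PN library 1, 0.33 without vehicle library 4 and 0.21 without pool 1. In all 4 pools 1 of them (Tfdp1) was higher (8.56% of all genes). Of the MuvB core (Lin9, Lin37, Lin52, Lin54 and Rbbp4) and Foxm1, the forkhead factor that follows B-Myb, 0 were called by edgeR or DESeq2, 0 had an edgeR unadjusted p under 0.05, and 4 of 6 were above 0. Their median was 0.10, and it was -0.061 without pool 4, -0.037 without pool 3, -0.014 without vehicle library 4 and -0.0018 without vehicle library 3. Rbbp4, a histone-binding protein shared with other complexes, was the most abundant, at 707 ± 115.4 CPM in vehicle and, under NAM/PN, at 764 ± 44.4 CPM (SD, n = 4). Foxm1 was at 54.5 ± 13.1 CPM and 58.5 ± 9.76 CPM. Log2 fold changes were 0.11 for Rbbp4, 0.10 for Foxm1, 0.32 for Lin9, 0.09 for Lin54, -0.29 for Lin37 and -0.95 for Lin52, with standard errors from 0.15 to 1.32.

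Upstream of the pocket proteins, 3 genes for inhibitors of cyclin-dependent kinases passed the test, in both directions. Of 17 cyclin, kinase and inhibitor genes, 1 rose (Cdkn2a) and 2 fell (Cdkn1a and Cdkn1c), where 0.282% of all tested genes rose and 0.995% fell. Cdkn1a, which encodes p21, was at 1229, 1276, 1179 and 1526 CPM in vehicle and at 574, 566, 450.3 and 426 CPM with NAM/PN. Its log2 fold change was -1.37 ± 0.16 (SE, edgeR adjusted p = 9.38e-05), and every alternative kept the call. Cdkn1c, which encodes p57, fell from a range of 22.7 to 68.2 CPM to a range of 5.14 to 16.6 CPM (log2 fold change -2.09 ± 0.46, edgeR adjusted p = 0.0248). With the pool as a block, the Cdkn1c call was lost (adjusted p = 0.0586). Cdkn2a, the locus of p16 and p19ARF, rose from between 129 and 182 CPM to between 202 and 359 CPM, with a log2 fold change of 0.92 ± 0.20 (edgeR adjusted p = 0.0187, and 0.0205 with the block). The 3′ tags do not separate the 2 proteins of the locus. The median of the 17 genes was -0.05, and it ran from -0.12 to 0.079 over the leave-outs of a library or pool. Leaving out vehicle library 1 or 4, or NAM/PN library 1 or 2, cost both the Cdkn2a call (adjusted p from 0.0567 to 0.0931) and the Cdkn1c call (0.0692 to 0.243), and leaving out NAM/PN library 4 cost the Cdkn1c call alone (0.0585). Without pool 1, 2 or 4 both calls were lost too (edgeR adjusted p from 0.102 to 0.1895 for Cdkn2a and from 0.138 to 0.323 for Cdkn1c).

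Co-repressors that act with E2F and pocket proteins, such as histone deacetylases and Polycomb subunits, had log2 fold changes above 0 for 11 of 12 genes, where 49.8% of all tested genes did, and the median log2 fold change was 0.19 against -0.0022 over all genes. Without pool 1 these were 7 of 12 and 0.063, without vehicle library 1 they were 8 of 12 and 0.12, and without pool 4 the median was 0.29. Among them, 0 were called by edgeR or DESeq2 (1.28% of all genes in edgeR), and 0 had an edgeR unadjusted p under 0.05 (9.28% of all genes). Pcgf6, a Polycomb subunit of the E2F6 complex, was between 13.3 and 17.0 CPM in vehicle and between 22.1 and 27.9 CPM with NAM/PN, without overlap, as for 2.79% of all genes (log2 fold change 0.73, edgeR unadjusted p = 0.0532 and adjusted p = 0.553). Ezh2, the methyltransferase of Polycomb repressive complex 2, had a log2 fold change of 0.19, and Suv39h1, a histone H3 lysine 9 methyltransferase, of 0.25 (edgeR adjusted p = 0.859 and 0.867). Without vehicle library 2 these were 0.12 and 0.14, and Suv39h1 was at 0.14 without NAM/PN library 3.

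Known E2F targets of the G1/S transition mostly had values above vehicle. Of 56 genes, 51 had log2 fold changes above 0, where 49.8% of all tested genes did, and their median was 0.32 against -0.0022 over all genes. An edgeR unadjusted p under 0.05 was reached by 15 of the 56, all of them higher with NAM/PN, where 3.96% of all tested genes were, and 17 were higher in all 4 pools, against 8.56% of all genes. Of the 56, 1 was called higher, where 0.282% of all genes were, and 0 were called lower. Nasp, a chaperone that supplies histones to replicating chromatin, was at 364.1, 290.1, 408 and 364.0 CPM in vehicle and at 579, 551, 570.3 and 647 CPM with NAM/PN. It rose by 0.72 ± 0.16 on the log2 scale (SE, edgeR adjusted p = 0.0208, and 0.0348 with the block), without overlap of the groups. Ung, the uracil-DNA glycosylase, was between 15.9 and 55.7 CPM in vehicle and between 67.3 and 82.2 CPM with NAM/PN, with a log2 fold change of 1.21 ± 0.34 and an edgeR adjusted p of 0.104. Ung was called without vehicle library 1 (log2 fold change 1.59, edgeR adjusted p = 0.0327) and with no filter on low counts (edgeR adjusted p = 0.000928). Slbp, the protein that binds histone mRNA, had a log2 fold change of 1.24 ± 0.44 (edgeR adjusted p = 0.282). The Nasp call was lost without vehicle library 1, 2 or 4 or NAM/PN library 1 or 3 (adjusted p from 0.0553 to 0.132). It was also lost without pool 1, 2 or 4 (edgeR adjusted p from 0.098 to 0.245).

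The targets of B-Myb, MuvB and FoxM1 in G2/M had a lower median than the G1/S targets. Of 44 genes, 29 were above 0 (49.8% of all genes were), 9 were higher and 0 lower in all 4 pools (8.56% and 10.6% of all genes were), and their median was 0.07. The median was 0.13 without NAM/PN library 4, 0.12 without pool 1, 0.15 without pool 4 and 0.047 without pool 3, and the number above 0 ran from 24 to 38 over the leave-outs of a library or pool. For this list edgeR and DESeq2 both called 0 (1.28% of all genes in edgeR), with 3 at an edgeR unadjusted p under 0.05, all higher, where 3.96% of all genes were. Those with the smallest p were Sgo1, which protects centromeric cohesion, Birc5, which encodes survivin, and Bub1, a spindle checkpoint kinase. Their log2 fold changes were 0.68 ± 0.25, 0.43 ± 0.16 and 0.66 ± 0.28 (SE, edgeR adjusted p = 0.302, 0.322 and 0.439), and each was higher in 4 of 4 pools. The difference between the 2 target lists was not tested.

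**Figure D3:**
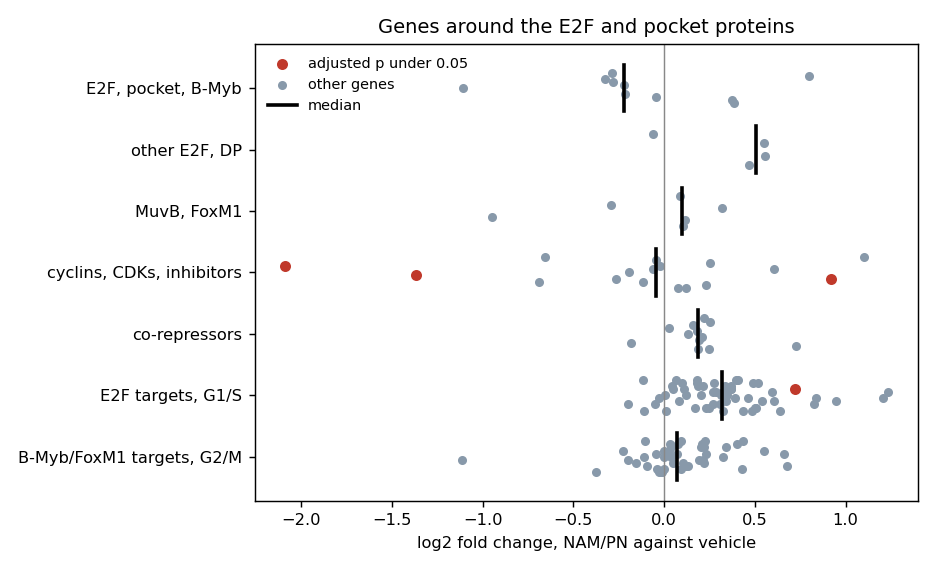
Each point is 1 gene at its log2 fold change of NAM/PN against vehicle, by list, with black lines at the medians and red for an edgeR adjusted p under 0.05. The median of the G1/S targets was 0.32 and that of the G2/M targets 0.07, and the 4 red points are Cdkn1c, Cdkn1a, Cdkn2a and Nasp.

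The promoters of the 2 target lists differed in the words they held. An E2F word was found in 19 of the 44 G1/S targets with a RefSeq window (43.2%) and in 1 of 38 G2/M targets, Cdk1 (2.63%), against 5.13% of 8858 tested genes. A CHR word was found in 20.5% of the G1/S targets and in 73.7% of the G2/M targets, against 15.8% of tested genes. These lists hold genes that are known as targets in part because of such sites, so the shares are a description of the lists.

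**Figure D4:**
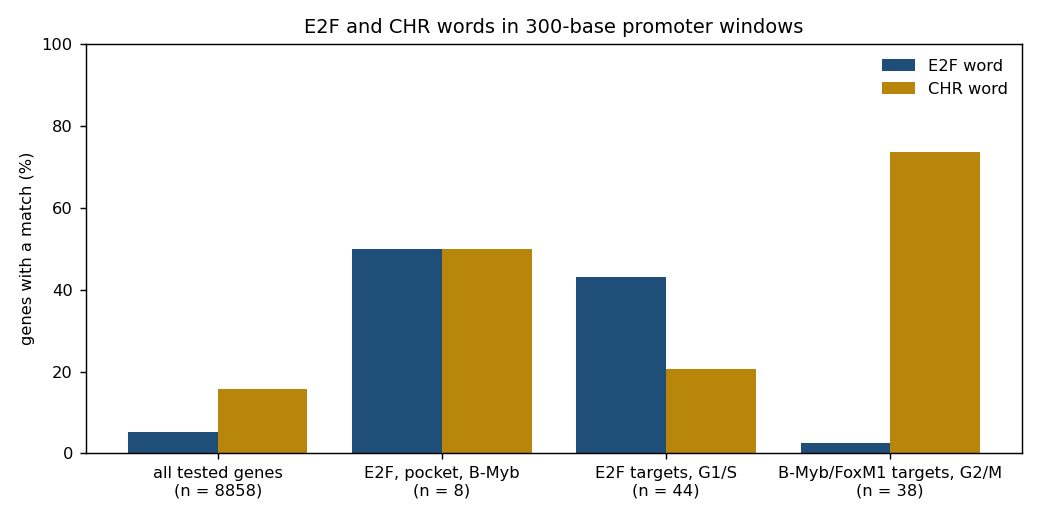
Bars give the percentage of genes with at least 1 E2F word (blue) or CHR word (ocher) in a RefSeq window from 250 bases before to 50 bases after the start. The G1/S targets reached 43.2% for the E2F word and the G2/M targets 73.7% for the CHR word, and the E2F, pocket and B-Myb genes held each word in 4 of 8.

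Genes with the most similar pattern over the 8 libraries were found by Pearson's r of log2 CPM among genes above a mean log2 CPM of 5, as a description. For Rb1 they were Zwilch, Itsn1 and Retreg1 (each r = 0.96), and 0.735% of genes exceeded 0.9. For E2f2 they were Wbp4, Ap2b1 and 4931406P16Rik, for E2f4 Vgll3, Nf2 and Vps36, for E2f8 Suz12, Esf1 and Golga4, and for Mybl2 Pmpca, Atpif1 and Mgat2. The points share depth and treatment.

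The cells expressed the markers of the myogenic lineage. All 11 myogenic markers passed the filter, with a summed level of 3433 to 4955 CPM in vehicle and 2319 to 3085 CPM with NAM/PN. All 11 had log2 fold changes below 0, with a median of -0.42, and 3 (Myog, Mymk and Myh3) were called lower, where 0.995% of all genes were. Pax7, the stem cell factor, had a log2 fold change of -0.18 and Myod1, the commitment factor, of -0.19 (edgeR adjusted p = 0.923 and 0.824). Over the leave-outs of a library or pool, Myod1 ran from -0.31 to -0.12. Myog, the factor of differentiation, fell from between 566 and 1428 CPM to between 107.8 and 277 CPM (log2 fold change -2.22 ± 0.29, edgeR adjusted p = 0.000232). Myog and Rb1 were both lower in 4 of 4 pools, and the part of the myogenic state in the Rb1 values was not tested. Of 8 immune markers, 7 were at 0 in every library (Ptprc among them) and the sum was at most 7.58 CPM, and of 8 endothelial markers Flt1, Emcn and Cldn5 were at 0 with a sum of at most 29.6 CPM. Of 8 fibro-adipogenic markers, Pdgfra, Lum and Dpt were at 0, and the sum ran from 227 to 328 CPM in vehicle, mostly Col3a1 and Cd34, and from 117 to 1168 CPM with NAM/PN. Cd34 was also one of the surface markers by which these MuSCs were sorted, so its level does not mark fibro-adipogenic cells here. Col3a1 fell (log2 fold change -1.17, edgeR adjusted p = 0.00255), Cd34 had a log2 fold change of -0.71 (adjusted p = 0.331), and Col1a1 was above 41.3 CPM in NAM/PN libraries 1 and 2 and in no other library. Mural markers summed to between 285 and 611 CPM in vehicle and between 95.9 and 156 CPM with NAM/PN with Myh11 at 0, led by Acta2. Myogenic cells are also known to express Acta2. The part of these markers in the results above was not tested.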

How the data were processed

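RNA of aged MuSCs cultured with vehicle or NAM/PN was measured in 8 libraries, 4 per condition. The deposited table holds unnormalized counts for each gene, which the authors made from QuantSeq 3′ mRNA libraries with GRCm38 and HTSeq 2.16.2 per the labels. No gene filter had been applied to it, and whether strand was used in counting is not given in the sources used here. Groups were taken from the treatment in the labels.

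Genes were named with GENCODE M21 (55141 of 55487 identifiers matched). Genes were kept with edgeR 4.0.16 filterByExpr (minimum count of 10, minimum total of 15), scaled by TMM and tested with the quasi-likelihood test in R 4.3.3, without a block, two-sided, with Benjamini-Hochberg adjustment over all 12060 genes and a threshold of 0.05. Log2 CPM used a prior count of 2. The procedure was tested on simulated data. Pools were the replicates, so p-values measure the spread between cultures of pooled mice. Libraries with the same pool number were taken to come from the same mice, although their deviations from the group means were hardly related (r between -0.03 and 0.03), and the pool as a block was an alternative. Other alternatives were DESeq2 1.42.0, other scalings, no filter, a robust fit, thinning to the smallest library, and leaving out each library or pool. Sequences came from RefSeq windows (GRCm38.p6). Figures were drawn with matplotlib.

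The 10 genes and the lists were chosen with earlier results of these data known. Named were all members, E2F and DP partners and MuvB genes, the 3 genes with the smallest p and up to 5 called genes of each other list, and Pax7, Myod1 and Myog. Library totals of 6472484 to 10163101 counts put the floor of 3 counts between 0.280 and 0.457 CPM, and floors cover counting error only. One further marker list is not reported here.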

Additional observations from a re-analysis of the deposited data

Results flagged for a closer look

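In 40 groups of 4 libraries (the 10 genes, E2F and DP partners and MuvB genes in each condition), 3 had a library that stood apart from the rest by Dixon's criterion, which chance meets in about 1 in 20 groups. Rb1 was 41.9 CPM in vehicle library 4, below the other vehicle libraries at 50.4 to 51.0 CPM, and above every NAM/PN library. Rbl2 was 42.6 CPM in vehicle library 3, above the other vehicle libraries at 16.3 to 19.0 CPM. Lin54, a DNA-binding subunit of the MuvB core, was 19.8 CPM in NAM/PN library 3, below the other NAM/PN libraries at 25.5 to 26.6 CPM.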

How the results depend on the processing

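Of 200 alternative values for the log2 fold changes of the 10 genes, 187 kept their sign and their side of the threshold, and the mean levels and within-pool differences moved by less than their spread. With no filter on low counts, which raised the genes tested from 12060 to 19244, Rb1 was called (log2 fold change -1.12), so 1 of the 10 genes was called, and 2 G1/S targets in place of 1. With library totals only, E2f8 was at 0.022 and Tfdp2 at 0.0096. With the pool as a replicate block, Mybl2 was at -0.98 and 1 upstream gene in place of 2 was called lower, and the block changed no other call among the genes named here (156 genes were called over the whole table). A block without pool 4, chosen after seeing the data, gave 0.17 for E2f8, -3.91 for Mybl2 and -0.094 for Lin54, with 0 upstream genes and 0 G1/S targets called higher and 1 upstream gene called lower. Leaving out a library or pool gave -0.22 to 0.15 for E2f8, -0.66 to 0.18 for Rbl2 and -0.11 to 1.74 for Mybl2. It gave 0 to 1 upstream genes called higher, 1 to 3 called lower, 0 to 1 G1/S targets called higher, and medians of 0.21 to 0.60 for the E2F and DP partners, -0.061 to 0.14 for MuvB genes with Foxm1, 0.063 to 0.29 for the co-repressors and 0.047 to 0.15 for the G2/M targets. Between 0 and 2 of the 10 genes had an edgeR unadjusted p under 0.05. Fewer libraries were then fitted, and between 42 and 177 genes were called over the whole table, against 154 with all libraries, 289 with DESeq2, and 366 without the filter. Over the leave-outs, the uncalled genes that changed sign ranged from -0.40 to 0.21 (Tfdp2), -0.046 to 0.76 (Lin9), -1.21 to 0.20 (Lin37), -1.31 to 0.31 (Lin52), -0.11 to 0.38 (Lin54), -0.027 to 0.20 (Rbbp4), -0.073 to 0.29 (Foxm1) and -0.33 to 0.016 (Pax7). The causes were not tested. The values of Mybl2, Lin37, Lin52 and E2f5 rest on few counts in some libraries.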
